A study of Mus musculus with 9 samples.

Results

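The microRNAs miR-191 and miR-425 come from 1 short stretch of mouse chromosome 9, and their reads were followed through 9 small RNA libraries of mouse atrial appendages. The members are 2 miRNA precursors, mmu-mir-191 and mmu-mir-425, among 661 precursors with reads in the deposited files and among the 209 that passed the filter on low counts, which both members passed. The pair was chosen by name, with earlier results of these data known, for how its reads per clean read and per miRNA read compared across the groups. Its levels in those comparisons are therefore given as a description, and any p beside them describes a fit and is not independent evidence.

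All mice were C57BL/6. The young group was 5 months old and had no curcumin, the old group was 18 months old and had no curcumin, and the curcumin group was 18 months old and had received curcumin, the yellow compound of turmeric, at 100 mg/kg daily in non-fat skim milk between 12 and 18 months of age. Each group had 3 libraries, numbered 1 to 3, and the labels do not say whether a library was 1 animal or a pool, so the spread between libraries may be partly technical. In PANDORA-seq, RNA is demethylated by the enzyme AlkB, its ends are repaired by T4 polynucleotide kinase so that adapters can be joined, and small RNAs of 15 to 45 nucleotides are sequenced. The title of the series is about curcumin, tRNA-derived small RNA and susceptibility to atrial fibrillation.

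A miRNA is cut from a hairpin precursor by Drosha and Dicer, and the arm that is loaded into an Argonaute protein pairs through its seed, bases 2 to 8, with target transcripts. Neighbouring hairpins transcribed together start in equal number, while processing and decay of each can differ. miR-191 is abundant in many tissues and is widely used as a reference when small RNAs are quantified. Human miR-425 has been reported to repress NPPA, the gene of atrial natriuretic peptide, a hormone of atrial muscle. No mRNA was measured in these libraries.

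The mature arms are shown first, because the members share a locus and not a seed. Each sequence is from RefSeq (GRCm38.p6), written 5′ to 3′, with the seed in capitals.
mmu-miR-191-5p: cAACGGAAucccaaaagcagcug
mmu-miR-191-3p: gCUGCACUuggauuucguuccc
mmu-miR-425-5p: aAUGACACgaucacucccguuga
mmu-miR-425-3p: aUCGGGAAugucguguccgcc
No 2 of these 4 seeds are alike. The seed of miR-425-5p is also that of mmu-miR-489-3p in the RefSeq table, and the other 3 seeds have no other mouse miRNA there. In the hairpins below, capitals mark the mature arms, which pair with each other across the loop.
Mir191: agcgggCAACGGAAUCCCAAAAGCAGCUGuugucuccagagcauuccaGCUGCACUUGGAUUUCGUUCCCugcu
Mir425: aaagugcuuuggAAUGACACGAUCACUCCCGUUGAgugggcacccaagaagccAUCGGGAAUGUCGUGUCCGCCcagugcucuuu
The hairpins are 74 and 85 nucleotides long, and 54.1% of the bases are G or C in each. The deposited values count reads per precursor, so the 5p and 3p arms of a member could not be told apart.

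Mir191 lies at chr9:108568319-108568392 and Mir425 at chr9:108568777-108568861, both on the plus strand of mm10, with 384 nucleotides between them. In RefSeq both lie inside Dalrd3 (108567484 to 108572773), a gene whose protein takes part in tRNA methylation. In GENCODE M21, Dalrd3 starts at 108569886, downstream of both hairpins, and the hairpins lie in the lincRNA 4833445I07Rik (108567533 to 108569174). A transcript of that lincRNA with 1 exon holds both hairpins, and Mir191 is intronic in another with 2 exons. GENCODE also has a miRNA model on the minus strand, Gm24083 (108568295 to 108568414), over Mir191. The use of strand in counting is not given in the sources used here, so reads from the opposite strand could not be separated. All reads of both members had matched the genome.

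Clean reads per library ranged from 12899427 to 19707803, and reads on miRNA precursors from 210212 to 918466. The 3 libraries numbered 1 stood apart in all groups: the genome matched 72.2% to 73.7% of their clean reads, against 65.0% to 68.3% in the other 6. Cardiac muscle miRNAs (7 of 7 listed in the files, none at 0 in all libraries) held between 30.7% and 43.1% of the miRNA reads of a library. Endothelial miRNAs (2 of 2) held between 21.5% and 28.2%. Most of the cardiac share came from the 2 loci of miR-1a, each with group means of 16.4% to 19.7%, and the endothelial share from miR-126a. Other members were rare: miR-208a averaged 324 reads a library, miR-499 1.89, miR-208b 0.333 and miR-126b 0.111. Smooth muscle miRNAs (2 of 2) held 1.41% to 1.83%. The lists for epithelium (7 of 7), liver (1 of 1) and neurons (3 of 6, with no miR-124a precursor in the files) reached at most 0.109%, 0.0190% and 0.0121%. In whole tissue, fewer cells of a type and less RNA per cell cannot be told apart.

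miR-191 was among the most abundant miRNAs in every library. It had 12471, 5648 and 6620 reads in young libraries 1 to 3, 8284, 6368 and 8947 in the old libraries, and 6637, 7976 and 7018 in the curcumin libraries. Its rank among miRNA precursors lay between 4 and 12, and by its mean share of miRNA reads, 1.91%, it was the fifth most abundant of the 209 tested.

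In reads per 1000000 clean reads, miR-191 stood at 633, 361 and 513 in young libraries 1 to 3. It stood at 514, 367 and 535 in the old and at 379, 462 and 492 in the curcumin libraries. All 3 groups overlapped, with library 1 the highest of the young group and the lowest of the curcumin group. Group means were 502 ± 136 (young), 472 ± 91.3 (old) and 444 ± 58.2 (curcumin), with the SD of n = 3 libraries given here and throughout, and the differences lay within the spread. From lowest to highest library the level spanned 1.75-fold, with a coefficient of variation (CV, the SD over the mean) of 19.2% over the 9 libraries. That was the 10th lowest CV of the 209 miRNAs, whose median was 44.8% and whose range was 9.22% to 210%.

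The miRNA class as a whole was less steady than miR-191. It took 4.66%, 1.34% and 1.88% of clean reads in young libraries 1 to 3, 3.32%, 1.23% and 2.37% in old, and 3.21%, 4.22% and 3.53% in curcumin libraries, a 3.80-fold range. Means were 2.63% ± 1.78, 2.30% ± 1.05 and 3.65% ± 0.519. Libraries 2 and 3 of the young and old groups lay at 1.23% to 2.37%, and no curcumin library lay below 3.21%.

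As a share of miRNA reads, miR-191 therefore had a different order. It made up 1.36%, 2.69% and 2.72% of miRNA reads in young libraries 1 to 3, 1.55%, 2.99% and 2.26% in old, and 1.18%, 1.09% and 1.39% in curcumin libraries. The 95% Wilson interval reached no further than 0.0732 percentage points from any of these shares and covers counting error and not the duplication of molecules. The means were 2.26% ± 0.778, 2.27% ± 0.721 and 1.22% ± 0.154. All 3 curcumin libraries lay below all 3 old libraries, while curcumin library 3 lay above young library 1.

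**Figure D1:**
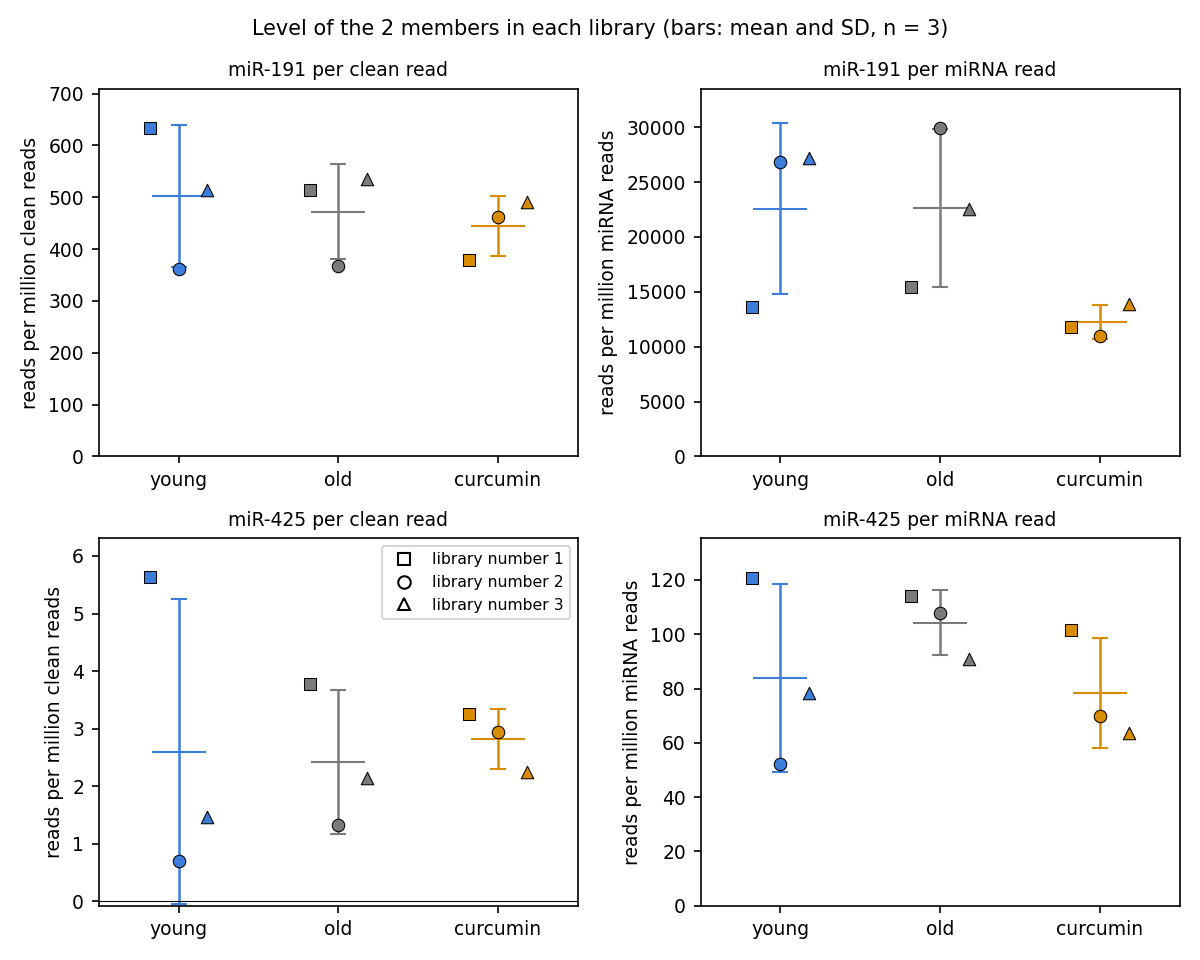
Reads of miR-191 (top) and miR-425 (bottom) per 1000000 clean reads (left) and per 1000000 miRNA reads (right) in each library of the young, old and curcumin groups. Bars are the mean and SD of 3 libraries and marker shapes give the library number. The curcumin libraries lie below the old ones for miR-191 per miRNA read only, and libraries numbered 1 are the highest of their group in both panels of miR-425.

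miR-425 was far rarer. It had 111, 11 and 19 reads in young libraries 1 to 3, 61, 23 and 36 in old, and 57, 51 and 32 in curcumin libraries, and ranked between 127 and 178 among miRNA precursors. For the 11 reads of young library 2, the exact 95% Poisson interval runs from 5.49 to 19.7 reads.

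In reads per 1000000 clean reads, miR-425 stood at 5.63, 0.703 and 1.47 in young, 3.78, 1.33 and 2.15 in old, and 3.26, 2.95 and 2.24 in curcumin libraries. The means were 2.60 ± 2.65, 2.42 ± 1.25 and 2.82 ± 0.520, and all groups overlapped. The 3 libraries numbered 1 lay at 3.26 to 5.63 and the other 6 at 0.703 to 2.95, without overlap. How many other miRNAs separated in this way was not counted. The range from lowest to highest was 8.02-fold and the CV 57.4%, the 148th lowest of 209.

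In reads per 1000000 miRNA reads, the spread of miR-425 was narrower. It stood at 121, 52.3 and 78.2 in young, 114, 108 and 90.9 in old, and 102, 69.9 and 63.5 in curcumin libraries. The means were 83.8 ± 34.6, 104 ± 12.0 and 78.3 ± 20.4, and all 3 groups overlapped. The range was 2.31-fold. On this scale the order of the members was turned round: the SD of log2 levels per miRNA read was 0.57 for miR-191 and 0.41 for miR-425, with a median of 0.51 over the 209 miRNAs.

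**Figure D2:**
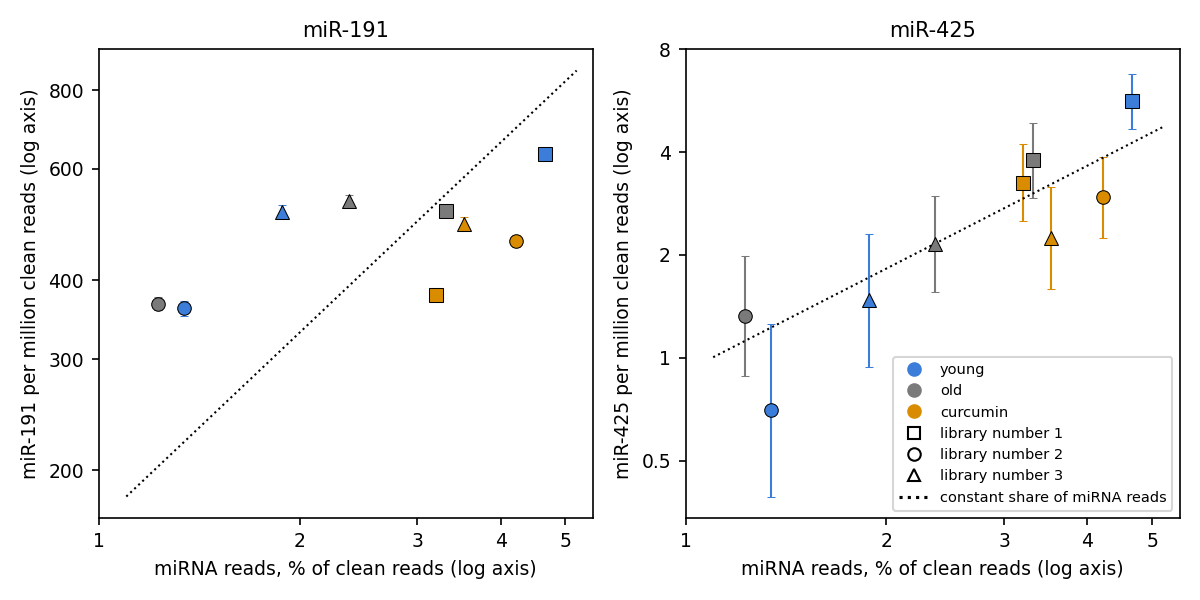
Level of each member per 1000000 clean reads against the share of clean reads on miRNA precursors, both on log axes, 1 point per library, with 95% counting intervals. Along the dotted line a member would keep a constant share of miRNA reads. miR-425 lies near the line in most libraries, and miR-191 spans 361 to 633 while the class spans 1.23% to 4.66%.

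Old against young mice gives what differs with age, and neither member passed the test. Over all 520 tested small RNA features, scaled by TMM (a trimmed mean that sets libraries on a common scale), the log2 change in old against young mice was −0.05 (SE 0.23, adjusted p = 0.999) for miR-191 and 0.06 (SE 0.61, adjusted p = 0.999) for miR-425. The quasi-likelihood fit of edgeR called 0 of 520 features (0.0%), with 5 at an unadjusted p under 0.05, and DESeq2 and limma-voom called 0 too. A second fit, relative to all miRNA reads, held miRNAs alone and 9 more of them than the 209. There the changes were 0.01 (SE 0.29) and 0.27 (SE 0.39), and 0 miRNAs were called (0.0%), with 3 unadjusted. Within library numbers 1, 2 and 3, the log2 difference of miR-191 per miRNA read between old and young was 0.19, 0.15 and −0.27.

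The curcumin and old groups were of equal age and differed in treatment, and for miR-191 the difference moved with the scale. TMM-scaled CPM (counts per 1000000 scaled counts) averaged 579 ± 69.7 in the old and 470 ± 90.8 in the curcumin group. The fitted log2 change was −0.30 (SE 0.24, adjusted p = 0.917). Relative to all miRNA reads the change was −0.89 (SE 0.29, adjusted p = 0.493), a mean share 1.85-fold lower with curcumin. With clean-read totals in place of TMM it was −0.09 (SE 0.28, adjusted p = 0.915). edgeR called 0 of 520 features in the first fit (0.0%, 21 unadjusted) and 0 miRNAs in the second (0.0%, 18 unadjusted), and DESeq2 and limma-voom called 0 features. The direction was the same on all 3 scales.

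These scales also moved the class as a whole. Of 209 miRNAs, 161 had higher fitted values with curcumin than in old mice under TMM, with a median log2 change of 0.25. In the fit per miRNA read, with its 9 further miRNAs, 151 or 69.3% had lower ones, with a median of −0.25. The log2 change was lower than that of miR-191 for 22 miRNAs under TMM (10.5%) and for 24 per miRNA read (11.0%). Separation of the curcumin libraries below the old ones per miRNA read was shared by 31 of 209 miRNAs, or 14.8%. miR-191 was therefore 1 of several miRNAs with that pattern.

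Within numbers 1, 2 and 3, the log2 differences between curcumin and old per miRNA read were −0.39, −1.45 and −0.70. As every curcumin share lay below every old share, any matching of these libraries gives a negative value. The common sign therefore adds no support, and pairing by number was not settled. The difference was smallest for number 1, whose old and curcumin libraries had miRNA shares of 3.32% and 3.21%. A link between the 2 was not tested. A fit per miRNA read without the 3 libraries numbered 1, chosen after the data were seen and with 2 libraries a group, gave −1.08 (SE 0.17, adjusted p = 0.000287). In that fit 19 of 206 miRNAs fell (9.22%), miR-191 among them, and 8 rose. With all features and TMM the same libraries gave −0.17 (SE 0.26, adjusted p = 0.647), where 73 of 519 features were called.

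The shares of 2 marker lists, smooth muscle and leukocyte, did not overlap between curcumin and old libraries. The smooth muscle list (2 of 2 listed, none at 0 in all libraries) held 1.75% to 1.83% of miRNA reads in curcumin, 1.41% to 1.66% in old and 1.45% to 1.58% in young libraries. Its members went opposite ways and 0 were called per miRNA read: miR-143 had 1.51% ± 0.0441 with curcumin and 1.09% ± 0.159 in old mice, and miR-145a 0.293% ± 0.00774 and 0.417% ± 0.0239. The leukocyte list (5 of 5 listed, none at 0 in all libraries) held 0.470% to 0.613% of miRNA reads in old and 0.633% to 0.677% in curcumin libraries, and 0.524% to 1.02% in young ones. In curcumin against old mice per miRNA read, 3 of its members had higher and 2 lower fitted values, and 0 were called. The red blood cell list (4 of 4, none at 0 in all libraries) held 0.122% to 0.346%, 0.0766% to 0.142% and 0.284% to 0.635% in old, curcumin and young libraries, so old and curcumin overlapped, with 1 member higher, 3 lower and 0 called. The part of these cells in the level of miR-191 was not tested.

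miR-425 had no steady direction between curcumin-treated and old mice. Its log2 change was 0.01 (SE 0.61, adjusted p = 0.995) under TMM and −0.41 (SE 0.39, adjusted p = 0.688) per miRNA read. TMM-scaled levels were 2.92 ± 1.29 and 2.94 ± 0.392 CPM. Its standard errors, 0.61 and 0.39, were wider than the 0.24 and 0.29 of miR-191 in the same fits, and its 11 to 111 reads a library limit what could be seen.

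The comparison of curcumin-treated with young mice shares its libraries with both others and is given beside them, not as further evidence. For miR-191 the log2 change was −0.35 (SE 0.24, adjusted p = 0.942) under TMM and −0.88 (SE 0.29, adjusted p = 0.259) per miRNA read. For miR-425 it was 0.07 (SE 0.61) and −0.14 (SE 0.39). edgeR called 0 of 520 features (0.0%, 19 unadjusted) and 0 miRNAs per miRNA read (0.0%, 28 unadjusted), limma-voom called 0 features and DESeq2 1. Within numbers 1 to 3 the log2 difference of miR-191 per miRNA read was −0.20, −1.30 and −0.97. Without the libraries numbered 1, a choice made after the data were seen, the fitted change was −1.12 (SE 0.17, adjusted p = 0.00033). In that fit 30 of 206 miRNAs fell (14.6%) and 10 rose. With all features and TMM the same libraries gave −0.22 (SE 0.26, adjusted p = 0.582). Clean-read totals, with all libraries, gave −0.18 (SE 0.28, adjusted p = 0.997). Per miRNA read with all libraries, 72.0% of miRNAs had lower fitted values than in young mice, with a median of −0.31.

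**Figure D3:**
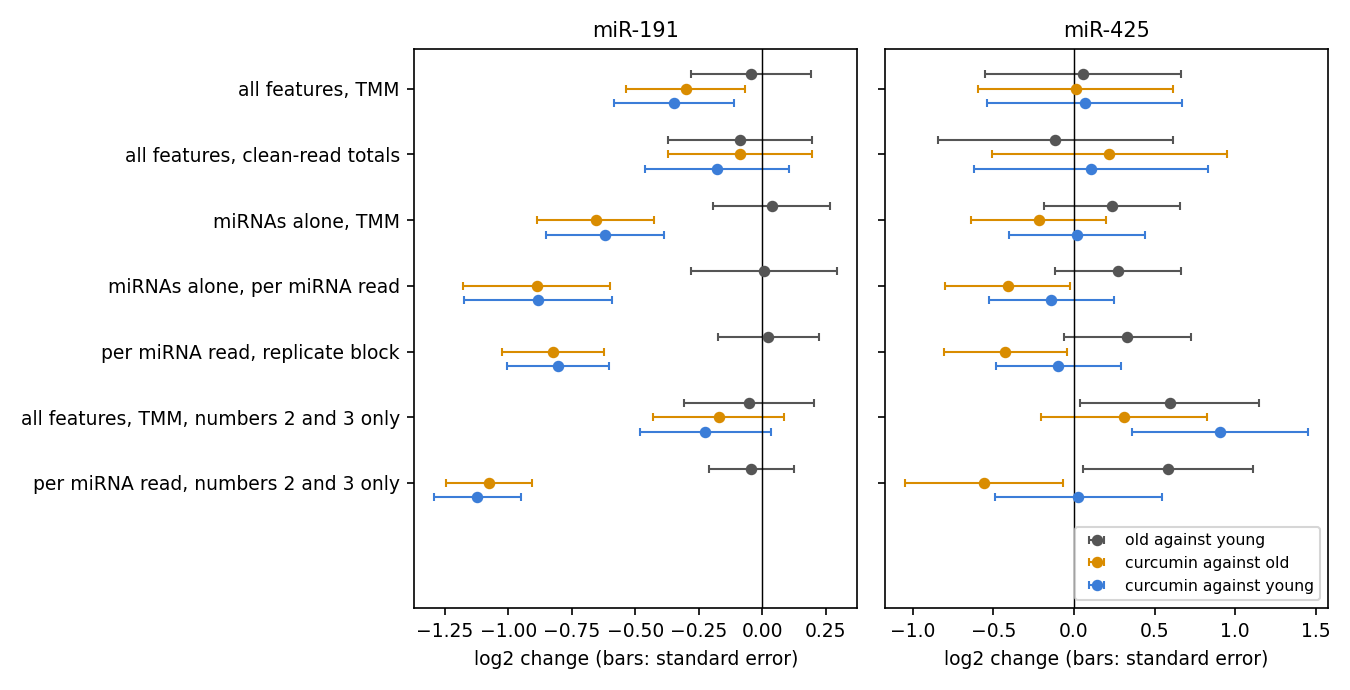
Log2 changes of miR-191 and miR-425 with standard errors in 3 comparisons, under 7 choices of features, scaling and libraries. The curcumin comparisons of miR-191 lie between −0.09 and −1.12 and those of miR-425 lie on both sides of 0.

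The ratio of the members varied between libraries. There were 112, 513 and 348 reads of miR-191 for each read of miR-425 in young libraries 1 to 3, 136, 277 and 249 in old, and 116, 156 and 219 in curcumin libraries. Libraries numbered 1 lay at 112 to 136 and the other 6 at 156 to 513, without overlap. How many other pairs separated in this way was not counted. The mean log2 ratio was 8.09 ± 1.14, 7.72 ± 0.554 and 7.31 ± 0.457 in young, old and curcumin-treated mice, so the groups overlapped. Counting error alone gives each log2 ratio an SD of 0.14 to 0.44, against an SD of 0.75 over the 9 libraries.

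Across the 9 libraries the Pearson correlation of the members was −0.15, on log2(reads per 1000000 miRNA reads + 1). By this measure miR-425 ranked 147th of 208 other miRNAs in likeness to miR-191, and miR-191 ranked 120th in likeness to miR-425. The points share library depth and the total of miRNA reads, so the value is a description. It holds for this scale only, and no correlation per clean read was computed. Per clean read, both members were highest in young library 1 and lowest in young library 2.

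Other neighbouring miRNAs show how common this is. On 1 strand, 62 pairs of tested precursors lay within 10 kb of each other in RefSeq, loci of the same miRNA left out. The ratio of mean reads was larger in the pair of miR-191 and miR-425 than in any other of the 62, at 7.45 on the log2 scale against a median of 1.84. The SD of their log2 ratio, 0.74 with 0.5 added to each count, ranked 43rd from the lowest (median 0.63, range 0.20 to 2.21), and their correlation ranked 50th from the highest (median 0.34), with 45 of 62 pairs above 0. Among tighter pairs, miR-25 and miR-93 had an SD of 0.20 and a correlation of 0.91, and miR-29a and miR-29b-1 of 0.22 and 0.84. miR-15b and miR-16-2, another abundant and rare pair, had 0.70 and 0.31. Some of these precursors have another locus with nearly equal counts. miR-16-2 and miR-16-1 averaged 5757 and 5768 reads, and miR-29b-1 and miR-29b-2 averaged 766 and 769. Reads may be divided between such loci, so these values may not be of the neighbour alone. Every pair with a larger SD than this one also had more counting error, with median counting SDs of 0.318 to 0.789 against 0.239. Pairs from 1 cluster can share members and are not independent. A varying ratio and a low correlation per miRNA read were thus not particular to this locus, but larger SDs came only with noisier counts. The gap in abundance was the widest of those compared.

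**Figure D4:**
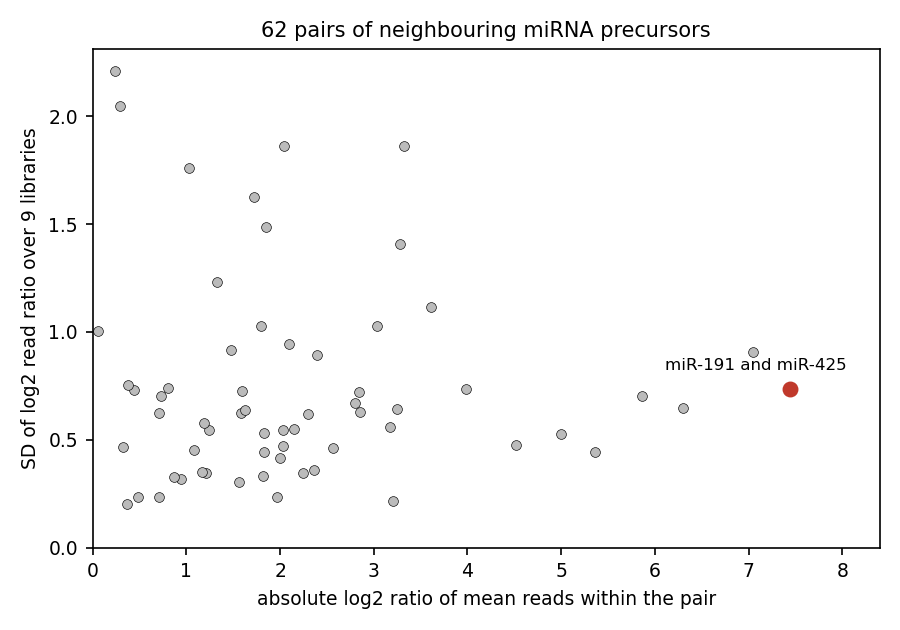
SD over 9 libraries of the log2 read ratio within each of 62 pairs of neighbouring precursors, against the absolute log2 ratio of their mean reads. The pair of miR-191 and miR-425 (red) lies farthest right, at 7.45, with an SD of 0.74 that is inside the range of the other pairs. Every pair with a larger SD also had more counting error.

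The 5 miRNAs most like miR-191 per miRNA read were let-7d (r = 0.975), miR-423 (0.963), miR-99b (0.957), miR-125a (0.953) and miR-676 (0.952), over 9 libraries and among 209 miRNAs. In all, 22 others were above 0.9. Every share in a library is divided by the same total of miRNA reads. These correlations, high or low, are therefore descriptions, and shared regulation was not tested. let-7d, of the let-7 family of growth repressors, made up 0.260% ± 0.0927 of the miRNA reads of young libraries, 0.262% ± 0.107 in the old group and 0.158% ± 0.00962 in the curcumin group. miR-125a stood at 0.699% ± 0.196, 0.713% ± 0.0798 and 0.506% ± 0.0478, and miR-423 at 0.0885% ± 0.0659, 0.116% ± 0.133 and 0.0177% ± 0.00576. Like miR-191, let-7d, miR-99b and miR-676 had low CVs per clean read (16.2%, 16.1% and 17.7%), while that of miR-423 was 70.0%. miR-99b and miR-125a are themselves neighbours on chromosome 17, where miR-99b-5p begins at 17830194 and miR-125a-5p at 17830817.

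At the other end were miR-148a (r = −0.956), miR-101a (−0.955), miR-21a (−0.935), miR-148b (−0.932) and miR-101b (−0.926), which were picked for display after their values were seen. miR-148a stood at 0.449% ± 0.169 of the miRNA reads of young libraries, 0.530% ± 0.271 in the old group and 0.998% ± 0.172 in the curcumin group. miR-21a, known from fibroblasts and wounded tissue, made up 0.179% ± 0.129, 0.185% ± 0.103 and 0.343% ± 0.127. Their CVs per clean read were 69.3% and 75.1%.

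**Figure D5:**
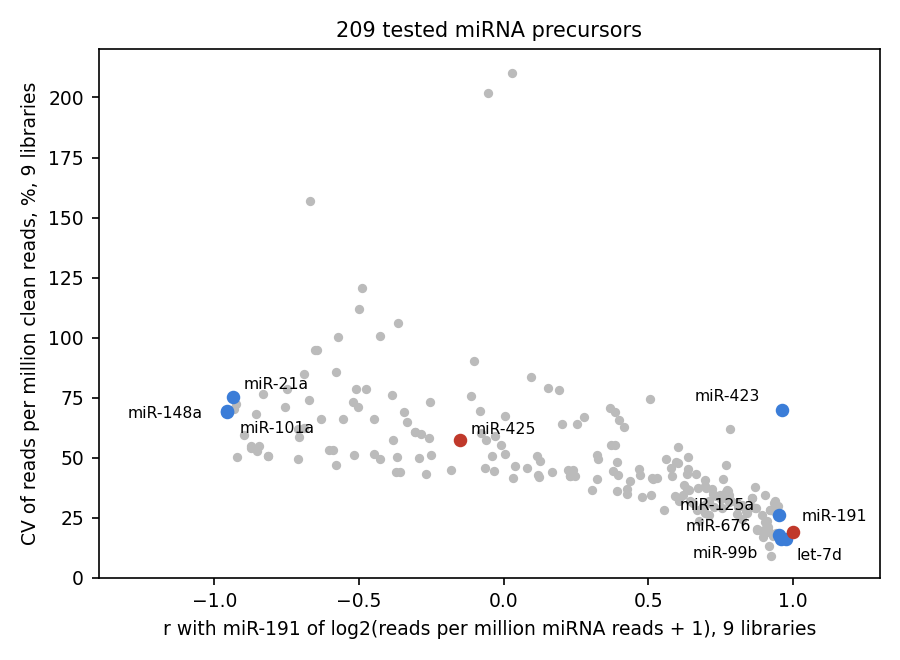
CV of reads per 1000000 clean reads over 9 libraries against the correlation with miR-191 per miRNA read, for 209 miRNA precursors. miRNAs like miR-191 mostly have a low CV, with miR-423 at 70.0% apart from them, and miR-425 (red, left) lies at a correlation of −0.15.

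Sequences of both ends of this order are shown to compare their seeds and base composition, 1 arm each, with the seed in capitals (RefSeq, GRCm38.p6).
mmu-let-7d-5p: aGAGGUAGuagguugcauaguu
mmu-miR-423-5p: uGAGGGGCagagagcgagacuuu
mmu-miR-99b-5p: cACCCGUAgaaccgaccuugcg
mmu-miR-125a-5p: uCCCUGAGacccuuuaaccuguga
mmu-miR-676-3p: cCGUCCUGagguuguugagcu
mmu-miR-148a-3p: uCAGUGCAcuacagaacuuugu
mmu-miR-148b-3p: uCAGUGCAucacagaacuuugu
mmu-miR-101a-3p: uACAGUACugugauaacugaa
mmu-miR-21a-5p: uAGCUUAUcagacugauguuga
miR-148a and miR-148b share a seed, and none of these seeds is one of miR-191. Averaged over arms, the GC content was 53.4% for miR-191, 45.5%, 60.9%, 63.6%, 54.5% and 57.1% for the 5 miRNAs most like it in the order above, and 39.4% to 47.7% for the 5 least like it. The median was 50.6% in the 20 most like it and 43.2% in the 20 least like it, against 47.6% over all tested miRNAs that matched a RefSeq sequence, which left out 18. Across the matched miRNAs, which are not independent, the correlation of GC content with likeness to miR-191 was 0.35, and 0.40 over the 98 with at least 100 reads on average. This view was chosen after the data were seen. By this average over arms miR-425 does not follow it: its arms average 54.9% GC and its own likeness correlated with GC at −0.24. Its 5p arm has 47.8% GC and its 3p arm 61.9%, and their reads could not be told apart. With 11 to 111 reads a library, its likeness is also noisy.

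The miRNAs most like miR-425 were miR-503 (r = 0.807), miR-7a-1 (0.671), miR-15b (0.667), miR-455 (0.658) and miR-7a-2 (0.636). miR-7a-1 and miR-7a-2 give the same 5p arm, so they share reads. These miRNAs were rare too, with 11.6 to 109 reads a library on average, where counting error weakens any correlation. miR-503, a repressor of the cell cycle related to the miR-16 family, made up 0.00828% ± 0.00431 of the miRNA reads of young libraries, 0.0124% ± 0.00594 in the old group and 0.00781% ± 0.00241 in the curcumin group.

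miRNAs often used as references were set beside miR-191, from a list of 12 loci of which 11 were tested. Of these, miR-16, miR-103 and miR-26a each entered as 2 loci with nearly equal values, so the counts are of loci and not of separate miRNAs. In curcumin-treated against old mice per miRNA read, 10 of these 11 had lower fitted values and 0 were called, with a median of −0.31 beside −0.25 over all miRNAs of that fit. Under TMM 9 of 11 were higher, with a median of 0.22 beside 0.25. Per clean read, the CV of miR-191 (19.2%) was below those of all 11, which ran from 28.0% to 78.2%, among them miR-103-1 (28.0%), miR-26a-1 (42.3%), miR-16-1 (47.9%) and miR-93 (78.2%). Per miRNA read the order changed, and 9 of the 11 had a lower CV than the 39.0% of miR-191. These included miR-103-1 (20.5%), miR-26a-1 (10.2%), miR-16-1 (17.4%) and miR-93 (36.9%). The 2 with a higher CV were miR-320 (78.5%) and miR-423 (116%), and miR-484, too rare to be tested, had 171%. miR-16-1 made up 1.35% ± 0.165, 1.28% ± 0.254 and 1.03% ± 0.0455 of miRNA reads in young, old and curcumin-treated mice, and miR-26a-1 0.606% ± 0.0629, 0.683% ± 0.0238 and 0.650% ± 0.0919. miR-191 was thus among the steadiest miRNAs per clean read and not per miRNA read.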

How the data were processed

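Small RNA was sequenced in 9 libraries (3 groups of 3). Per the labels' protocols, TRIzol RNA was treated with AlkB and T4 polynucleotide kinase, size-selected, ligated to adapters of a QIAGEN miRNA kit and read over 75 cycles. The submitters' processing notes name cutadapt 2.5 and mm10. Not given in the sources used here were the annotation tool, its strand setting and any use of molecular identifiers. The deposited values are expected counts of reads per annotation, not normalized by the authors: a read that matched several annotations was divided among them, as the fractional values show.

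Genome-matched and unmatched reads were summed and rounded. Ends of tRNAs were subtracted from their whole-tRNA rows, which hold them, so that no read entered more than 1 time. Of 996 features, filterByExpr kept 520. All 9 libraries entered 1 robust quasi-likelihood fit of edgeR 4.0.16 (R 4.3.3; TMM; group as the only term), with Benjamini-Hochberg adjustment over all features and a threshold of 0.05. The fit was also run on simulated counts of independent libraries. These held no effect of library number, so they do not show how the fit behaves with the libraries numbered 1 standing apart. A log2 pseudocount of 1 served for correlations and 0.5 for read ratios of neighbouring pairs. Intervals are Wilson for shares and exact Poisson for reads.

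The members, lists and tests were chosen with earlier results of these data known. Named are the members, the 5 miRNAs most correlated with each, the reference list, neighbouring pairs and marker lists. Alternatives were RLE and clean-read scaling, miRNAs alone (218 tested), DESeq2 1.42.0, limma-voom (limma 3.58.1), other filters, only the 2 groups compared, genome-matched reads, summed loci, a replicate block and left-out libraries. Deviations from group means were correlated between same-numbered libraries 1, 2 and 3. The values were 0.81, 0.62 and 0.27 between young and old, and 0.33, 0.19 and 0.28 between young and curcumin. Between old and curcumin they were 0.27, −0.07 and 0.37. Libraries of different number could be more alike. Young library 3 had 0.54 with old library 2, and young library 2 had 0.22 with curcumin library 3. Young library 1 had −0.71 and −0.40 with old libraries 2 and 3. Pairing by number was therefore not settled.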

Additional observations from a re-analysis of the deposited data

How the results depend on the processing

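With clean-read totals the log2 change of miR-425 in old against young mice turned to −0.12. With miRNAs alone and TMM, miR-191 in old against young turned to 0.036 and miR-425 in curcumin against old to −0.22. With miRNAs alone and miRNA-read totals, miR-191 in old against young turned to 0.0060 and miR-425 to −0.41 in curcumin against old and −0.14 in curcumin against young. Adding a replicate block to that fit gave 0.022, −0.43 and −0.10 for the same values, 4 called miRNAs in curcumin against young, and −0.83 (adjusted p = 0.0761) and −0.80 (0.0568) for miR-191 in curcumin against old and against young. The replicate block over all features called 0 features in each comparison and changed no call. miR-425 in curcumin against old turned to −0.0012 without a filter and −0.032 with genome-matched reads only, which gave −0.0052 in curcumin against young. DESeq2 called 1 feature in curcumin against young. Without the 3 libraries numbered 1, 73 and 67 features were called in curcumin against old and against young, and with miRNAs alone 27 and 40, where miR-191 reached −1.08 and −1.12 and miR-425 in curcumin against old −0.56. Leaving out single libraries, edgeR called 0 features each time. The change of miR-191 then ranged from −0.15 to 0.057 in old against young, −0.52 to −0.15 in curcumin against old and −0.57 to −0.19 in curcumin against young, and that of miR-425 from −0.34 to 0.97, −0.24 to 0.48 and −0.24 to 0.95. The difference in their log2 ratio ranged from −1.01 to 0.090, −0.73 to −0.19 and −1.41 to −0.32. The causes were not tested. Depth limits miR-425 to 11 to 111 reads a library.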
